A study of Mus musculus with 13 samples.

Results

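Gm10800, Gm10801, Gm10717, Gm21738 and Gm26870 are predicted mouse genes that lie in stretches of satellite repeat, and Gm42418 and Gm26917 are predicted noncoding genes beside or over ribosomal RNA sequence. They were chosen by measured values of the same data. All 7 were picked with their share of the transcripts and the absence of some of them from the filtered count table of the study known, and Gm10717 and Gm21738 also because an earlier fit of these data had called them lower after 3d HFD. The 7 genes were listed on all 13 plates and make up 7 of the 17727 genes common to all plates.

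Single microglia, gated as CD45lo CD11b+ by FACS, of C57BL/6J mice, all male, that ate control diet or HFD (60% fat) were sequenced with CEL-Seq2, which reads a tag at the 3′ end of each transcript together with a unique molecular identifier (UMI). The labels list 4 dissected brain regions while the methods describe hypothalamic cells, and the age of the mice is not given in the sources used here. The 13 plates held 192 wells each, 2496 in all, of which 1080 came from control diet and 1416 from HFD of 1 day (192 wells), 3 days (192), 1 week (324), 4 weeks (192), 9 weeks (144) or 16 weeks (372). The lengths were spread unevenly: HFD of 1 day was on 2 plates, HFD of 3 days on 3 and HFD of 9 weeks on 3. The tables summed to 7182058 transcripts over the common genes, with 376243 to 870831 per plate and a median of 2767 per well. A total of 1617 wells held at least 1500 transcripts over the genes of the filtered table, and these wells were used where diets were compared. Of the 7 microglia markers examined, Sall1 was found in 72.2% of these wells and the other 6, among them Cx3cr1 and Csf1r, in 95.1% to 99.8%, while the summed markers of any other cell type made up at most 0.0212% of the transcripts outside the members. The markers of neutrophils (3 genes), astrocytes (3) and erythroid cells (2) were each represented by 1 gene, and no lymphocyte marker was listed on all plates.

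Mouse major satellite DNA is the tandem repeat of pericentromeric heterochromatin, usually compacted and transcribed at a low level, with its units arranged head to tail over long arrays that a genome assembly represents only in part. Ribosomal RNA forms the core of the ribosome and makes up most of the RNA of a cell, but it is transcribed without the long poly(A) tail that oligo(dT) primers capture. Reads from either kind of sequence can fit many places of the genome nearly equally well. How reads with several matches were treated, and whether strand was used, is not given in the sources used here, so the split of reads among the members is uncertain.

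In GRCm38 with the GENCODE vM21 annotation, Gm10801 (chr2:98662237-98664083, plus strand) and Gm10800 (chr2:98666547-98667301, minus strand) lie next to each other on chromosome 2. Gm10717 (chr9:3025417-3033289, plus strand) lies at the start of the assembled part of chromosome 9, inside the span of Gm26870 (chr9:3000282-3038313), which is annotated on the opposite, minus strand. Gm21738 is on chromosome 14 (chr14:19415857-19418930, minus strand). Gm26870 is annotated as a long intergenic noncoding RNA and the other 4 as protein coding, although their sequence is that of a repeat. The following stretches of exon, read 5′ to 3′ on the strand of each gene, are shown because they hold the longest run that all 5 satellite-like members have in common. The capitals mark this run of 42 bases, which appears in Gm26870 as its reverse complement.
Gm10800: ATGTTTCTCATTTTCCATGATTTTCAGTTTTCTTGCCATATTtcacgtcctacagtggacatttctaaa
Gm10801: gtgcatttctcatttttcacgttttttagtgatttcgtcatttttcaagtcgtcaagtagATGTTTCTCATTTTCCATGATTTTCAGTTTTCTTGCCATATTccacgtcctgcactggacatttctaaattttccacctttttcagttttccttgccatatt
Gm10717: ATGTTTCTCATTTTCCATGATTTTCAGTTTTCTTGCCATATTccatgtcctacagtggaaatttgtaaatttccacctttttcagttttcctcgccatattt
Gm21738: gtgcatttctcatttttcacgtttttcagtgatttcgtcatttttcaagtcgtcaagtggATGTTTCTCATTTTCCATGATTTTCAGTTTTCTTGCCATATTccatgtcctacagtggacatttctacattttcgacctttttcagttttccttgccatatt
Gm26870: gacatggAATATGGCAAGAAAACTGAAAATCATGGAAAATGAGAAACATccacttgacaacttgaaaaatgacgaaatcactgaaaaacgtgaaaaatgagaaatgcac

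The printed stretches are chr2:98667233-98667301 (minus) for Gm10800, chr2:98662245-98662406 (plus) for Gm10801, chr9:3025417-3025518 (plus) for Gm10717, chr14:19417195-19417356 (minus) for Gm21738 and chr9:3014249-3014357 (minus) for Gm26870. The 42-base run was found in 11 of 55341 annotated genes, namely the 5 members and 6 other predicted genes of the same loci, and Gm26870 was the 1 gene among them with the run in the reverse orientation. A read of 50 to 75 bases that covers the run therefore has few positions left to tell these genes apart. In local alignments of 1 transcript each, with Gm26870 reverse complemented, the pairs of members were 87.1% (Gm10801 and Gm26870) to 93.7% (Gm10717 and Gm21738) identical.

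The orientation also shows in the base composition. Gm10800, Gm10801, Gm10717 and Gm21738 held 45.8% to 47.4% T and Gm26870 held 45.8% A, with a longest run of 6 A. The repeat itself was visible when each transcript was compared with itself at a shifted position. At a distance of 234 bases, 81.5% of the positions of Gm26870, 64.9% of those of Gm10717 and 62.4% of those of Gm21738 held the same base, against a median over all distances of about 31% (30.5%, 31.2% and 31.0%). Gm10800 and Gm10801 had their highest agreement at the nearby distances of 225 bases (56.3%) and 231 bases (52.8%), and all 5 had a lower peak at 58 bases (47.3% to 58.6%). Gm42418 had no such peak, with at most 31.0% at any distance.

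**Figure D1:**
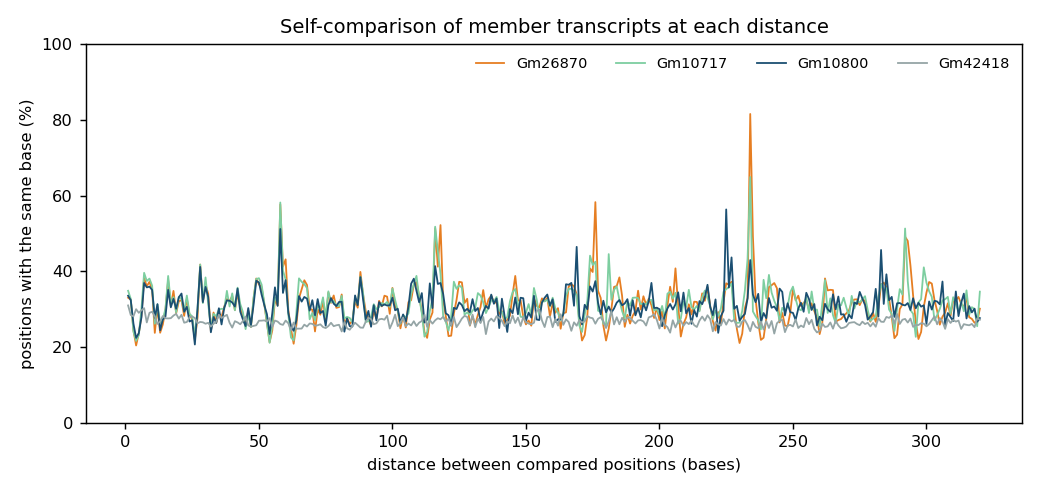
Percent of positions holding the same base (vertical axis) when a member transcript is compared with itself at each distance in bases (horizontal axis), one line per gene. Gm26870 peaks at 81.5% and Gm10717 at 64.9% at 234 bases, while Gm42418 stays at or below 31.0%.

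Gm42418 (chr17:39846958-39848788, plus strand) and Gm26917 (chr17:39843013-39846341, plus strand) are annotated as long intergenic noncoding RNAs next to each other on chromosome 17. Gm42418 overlaps CT010467.1 (chr17:39846353-39848827, minus strand), which the annotation classes as rRNA, and shares a run of 1244 identical bases with the opposite strand of that gene. The first 120 bases of Gm42418 (chr17:39846958-39847077, plus strand), all within the shared run and therefore all in capitals, are shown because they carry the rRNA identity that the name of the gene does not give.
Gm42418: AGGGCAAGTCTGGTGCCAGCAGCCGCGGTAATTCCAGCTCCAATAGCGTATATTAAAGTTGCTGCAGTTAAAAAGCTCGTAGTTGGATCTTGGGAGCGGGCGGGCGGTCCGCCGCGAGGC

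The members together held 24.7% of all transcripts, 24.3% in the 5 satellite-like genes and 0.371% in the 2 rRNA-like genes. Each value counts molecules at the 3′ end, so no scaling by gene length applies. Gm10800 ranked 1st of the 17727 genes with 9.24% of the transcripts and was found in 98.9% of the wells, with a median of 169 transcripts per well. Gm10801 ranked 2nd with 8.51%, a presence in 99.0% of the wells and a median of 143. Gm26870 ranked 3rd with 3.19%, a presence in 94.7% of the wells and a median of 23.1. These ranks are those of the pooled sum. Gm10801 lay above Gm10800 on plates 4, 5, 7 and 10 to 13 and below it on the other plates. Gm26870 lay below Gm21738 on 7 of the 13 plates (plates 1 to 3 and 6 to 9) and had a lower median over plates, 1.65% against 1.98%. In the pooled sum Gm21738 (2.03%, rank 4, 92.2% of wells, median 31.1) and Gm10717 (1.32%, rank 7, 89.9% of wells, median 21.1) followed. The rRNA-like members were much lower, with Gm42418 at 0.361% (rank 17, 75.3% of wells, median 4.0) and Gm26917 at 0.0104% (rank 1324, 19.6% of wells, at most 17 transcripts in a well).

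The order of the levels held only in part against the spread over plates. The mean share over the 13 plates was 9.32 ± 3.57% for Gm10800 and 8.47 ± 2.80% for Gm10801 (SD, n = 13), so these neighbours differed by less than either SD. All members were measured on the same plates, so these SDs are not the spread of a difference within plates. The neighbours differed by less than the larger SD for Gm26870 (2.82 ± 2.40%) against Gm21738 (2.02 ± 0.848%) and also for Gm21738 against Gm10717 (1.32 ± 0.502%). Gm42418 (0.349 ± 0.269%) reached 0.915% on plate 5 and so overlapped Gm10717, which went down to 0.534% on plate 11, while Gm26917 (0.00998 ± 0.00479%) lay below every plate value of Gm42418. The counting error was small beside this spread, with a 95% Wilson interval of at most ± 0.140 points for the satellite-like share of a plate. Intervals of this kind cover counting error only.

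Gm10800, Gm10801 and Gm26870 were absent from the filtered table of the study, while Gm10717, Gm21738, Gm42418 and Gm26917 were listed there. The filtered table lists 17280 of the 17727 common genes, and the 447 others held 23.1% of the transcripts. Of the transcripts left out, 90.9% belonged to the 3 absent members. Further predicted genes share these loci. Of 10 on a list of them, 9 were listed on all plates and together held 1.35% of the transcripts, and 8 of the 9 were absent from the filtered table as well, Gm37376 being the exception. The satellite-like signal was thus removed in part, since Gm10717 and Gm21738, with 3.36% of the transcripts, remained in the table that kept the authors' gene list.

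Fewer wells reached the minimum of 1500 transcripts over the genes of the filtered table than over all common genes. With all common genes counted, the 447 absent ones included, 1696 wells reached it, against 1617 over the genes of the filtered table. In the 79 wells that made the difference the satellite-like share had a median of 55.7% (range 0.660% to 87.9%), and it was at least 50% in 45 of them.

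Across plates the satellite-like share of all wells pooled ran from 13.7% on plate 11 to 37.5% on plate 9, with a median of 21.96%. Plates 1 to 3 had 25.7%, 24.8% and 16.8%, plates 4 and 5 had 32.1% and 19.7%, plates 6 to 9 had 21.96%, 18.8%, 18.6% and 37.5%, and plates 10 to 13 had 27.7%, 13.7%, 21.7% and 32.6%. The highest plate was thus 2.74 times the lowest. Gm10800 ranged from 3.90% to 16.2%, Gm10801 from 4.59% to 13.6%, Gm10717 from 0.534% to 2.16% and Gm21738 from 0.963% to 3.94%, with a highest over lowest ratio of 2.97 to 4.15. Gm26870 ranged more widely, from 0.692% on plate 3 to 8.16% on plate 4, a ratio of 11.8. The rRNA-like share varied by a larger factor still. It was lowest on plate 12 at 0.033%, highest on plate 5 at 0.928% and had a median of 0.291%, a ratio of 28.1 that followed Gm42418, while Gm26917 stayed between 0.0027% and 0.0194%. Plate 9, with the highest satellite-like share, had 0.199% rRNA-like, and plate 5, with the highest rRNA-like share, had 19.7% satellite-like. Plate 4 was high in both, with 32.1% and 0.757%.

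**Figure D2:**
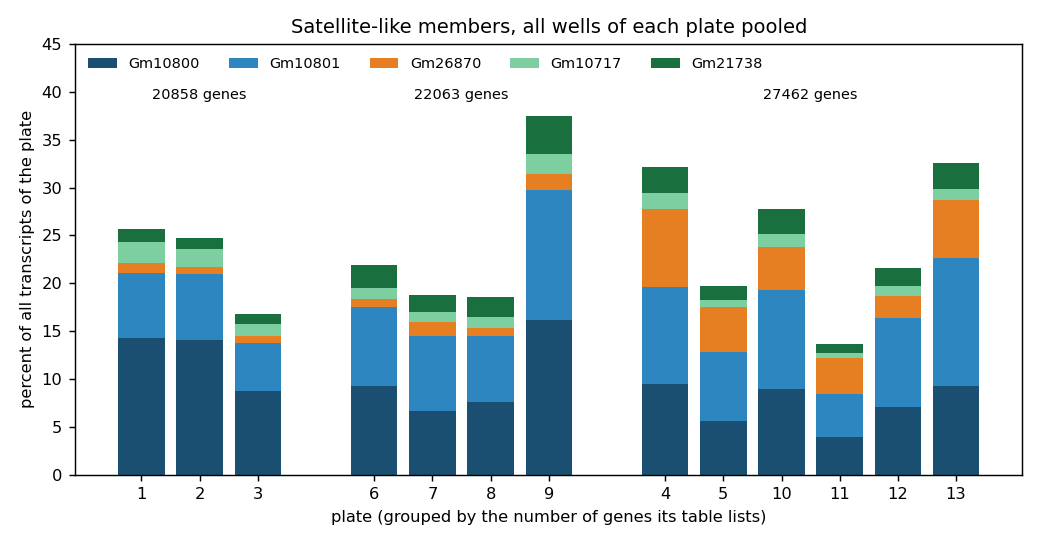
Stacked bars of the percent of all transcripts of a plate (vertical axis) held by each satellite-like member, all wells pooled, for the 13 plates grouped by the number of genes their tables list. The total runs from 13.7% (plate 11) to 37.5% (plate 9), and the orange Gm26870 segment is widest on plates 4, 5 and 10 to 13.

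The mixture of satellite-like members differed between sets of plates. The plate tables list 20858 genes for plates 1 to 3, 22063 for plates 6 to 9 and 27462 for plates 4, 5 and 10 to 13, and the sets were noticed in the values, so the differences are described with no test. Gm26870 made up 10.83% to 27.04% of the satellite-like transcripts on plates 4, 5 and 10 to 13 (mean 20.2 ± 6.20%, SD, n = 6) and 2.88% to 7.73% on the other plates (4.52 ± 1.51%, n = 7), with no overlap. Gm10800 went the other way, with 28.4% to 32.7% against 35.5% to 56.9%, as did Gm10717 with 3.67% to 5.02% against 5.28% to 8.42%. The fractions of Gm10801 and of Gm21738 overlapped between the same sets. Gm10801 per Gm10800 was 0.475 to 0.565 on plates 1 to 3, 0.842 to 1.17 on plates 6 to 9 and 1.06 to 1.43 on the others. The 3 sets differ in the gene list and could differ in the annotation, the sequencing run and the mice, and these cannot be told apart.

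The fraction of Gm26870, the member with the repeat in reverse orientation, also varied between the wells of a plate. Its median over wells was 2.95% to 7.61% on plates 1 to 3 and 6 to 9 and 10.95% to 26.7% on the others. On plate 11 it ran from 13.4% at the 10th percentile of wells to 50.4% at the 90th. The wells of replicate M1, a replicate identifier that occurs on plates 10, 11 and 12, had 11.9%, 47.6% and 10.5% Gm26870 on the 3 plates. On plate 11 the other 7 replicates were spread from 12.2% to 36.5%, with M1 above them, whereas the 8 replicates of plate 12 lay between 9.32% and 14.7%.

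Single wells differed far more than plates. Among the 1617 wells with at least 1500 transcripts, the satellite-like share ran from 0.130% to 85.4%, with 6.30% at the 10th percentile, a median of 18.6% and 38.4% at the 90th. The median 95% Wilson interval of a well was ± 1.22 points, so most of this range lay beyond the counting error. It was at least 50% in 42 wells, which is 2.60% (95% Wilson interval 1.93% to 3.49%). The spread was present on each plate, where the 90th percentile was 3.01 to 8.76 times the 10th. The rRNA-like share of these wells had a median of 0.220% and reached 5.84%. In the well with the most Gm10801, 2945 different UMIs of 6 bases were counted and the authors' correction for repeats gave 5199 transcripts, so the highest counts carry a large correction.

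The satellite-like share had little relation to the number of transcripts of other genes in deep wells. Those transcripts are also part of the denominator of the share. By the number of transcripts of genes outside the members, its median was 18.9% in the 603 wells with 1500 to 2500, 18.3% in the 680 with 2500 to 4000 and 18.2% in the 319 with 4000 or more. Below that the medians were 15.2% (1000 to 1500, 110 wells), 9.78% (500 to 1000, 114 wells), 15.8% (100 to 500, 481 wells) and 18.7% (under 100, 189 wells). For the rank correlation the members were counted per transcript of those other genes, which are then the whole denominator. Across wells of a plate with at least 1500 transcripts, Spearman's rho of this ratio with the transcripts of other genes was -0.21 to 0.19 for the satellite-like members. For the rRNA-like members it was -0.23 to 0.24. These are descriptions over 79 to 165 wells per plate that share a library.

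The share of wells that were mostly satellite-like depended on which genes were counted for the depth. Of the 878 wells under 1500 transcripts over the genes of the filtered table, 145 had a satellite-like share of at least 50%, which is 16.5% (95% Wilson interval 14.2% to 19.1%), against the 2.60% of the deeper wells. The filtered table leaves out the 3 most abundant members, so a high satellite-like share by itself moves a well under this minimum. With depth counted over all common genes, an alternative added after seeing the data, 100 of 799 wells under 1500 transcripts were at least 50% satellite-like (12.5%), against 87 of 1696 deeper wells (5.13%). Under the first count, the median of the shallow wells, at 15.8%, was near the 18.6% of the deeper wells. The pooled share of the shallow wells was higher, at 34.6% against 23.5%, and without plates 7 and 9 it was 25.2% against 23.6%. Plate 9 held 60 of the 145 and plate 7 held 30. On these 2 plates 90 of 185 shallow wells were at least 50% satellite-like (48.7%), and on the other 11 plates 55 of 693 (7.94%). Which shallow wells held an intact cell is not recorded in the tables.

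**Figure D3:**
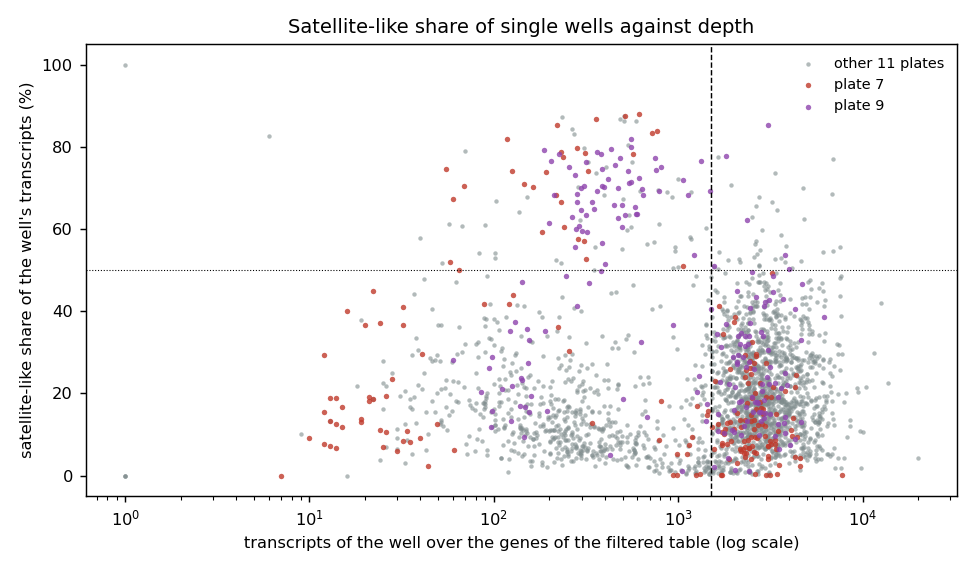
Satellite-like share of each well in percent (vertical axis) against the transcripts of the well over the genes of the filtered table (horizontal axis, log scale, wells with 0 drawn at 1), with plates 7 and 9 in colour, the minimum of 1500 transcripts as a dashed line and 50% as a dotted line. Shallow wells above 50% are mostly from plates 7 and 9 (90 of 145), and above the minimum 42 of 1617 wells reach 50%.

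Within plates the satellite-like members rose and fell together from well to well. Here and in the correlations between genes and lists that follow, a share is the number of transcripts per transcript of genes outside the members. Over the wells with at least 1500 transcripts, Spearman's rho was taken within each plate and its median over 13 plates is given. It was 0.98 for Gm10800 and Gm10801 (range 0.95 to 0.99) and 0.95 to 0.98 for the 6 pairs among Gm10800, Gm10801, Gm10717 and Gm21738. Gm26870 followed the other 4 less closely, with 0.79 to 0.84. On single plates its rho ran from 0.42 (with Gm10717, plate 11) to 0.90 (with Gm10801, plate 4), and on plates 10 and 11 it was 0.42 to 0.65. With every well thinned to 1000 UMIs the medians over plates were 0.86 to 0.96 for the 6 pairs and 0.69 to 0.79 for those with Gm26870. The wells share a library and the members near-identical sequence, and how far shared reads set these values was not tested. The ratio of Gm10801 to Gm10800 varied over wells of a plate by a median of 2.30 times the variance that binomial sampling gives (range 0.758 to 6.78), that of Gm26870 to Gm10800 by 6.18 times (2.65 to 49.6) and that of Gm42418 to Gm10800 by 23.8 times.

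The 2 kinds of member did not move together. The 10 pairs of a satellite-like with an rRNA-like member had median rho values of -0.14 to 0.02, and Gm42418 and Gm26917, neighbours on chromosome 17, had 0.001. The 5 pairs with Gm42418 all had negative medians, -0.14 to -0.10. On single plates these 5 pairs ran from -0.35 to 0.07, and on plate 7 they lay between -0.35 and -0.27. Gm26917 was found in few wells, so its rho is limited by counts of 0 and 1. Per 100 transcripts of Gm42418 there were 1.4 to 5.3 of Gm26917 on 12 plates and 21.5 on plate 12, where Gm42418 was lowest.

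**Figure D4:**
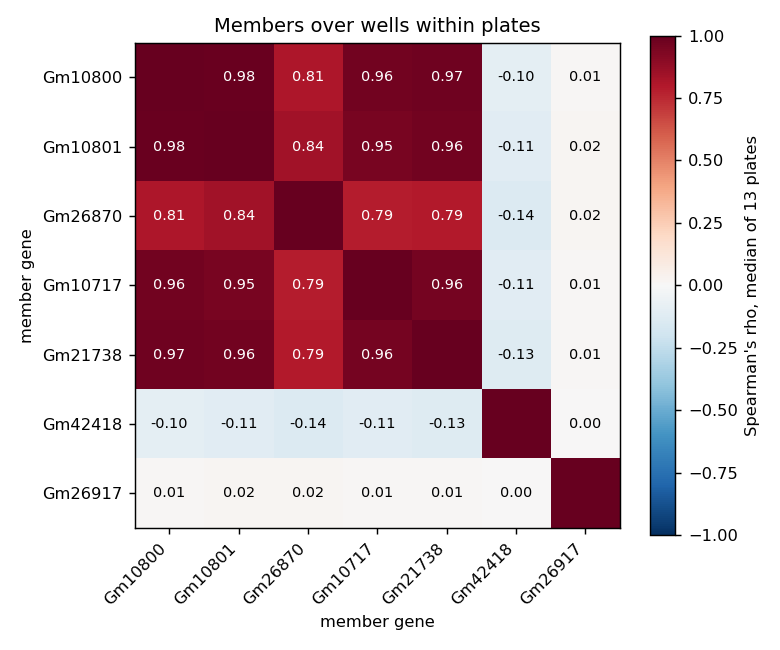
Spearman's rho between each pair of members (colour scale), as the median of 13 plates, over wells with at least 1500 transcripts. Each member is counted per transcript of genes outside the members. The 4 satellite-like members with the repeat in the same orientation form a block of 0.95 to 0.98, and the rRNA-like members stand outside it. Gm26870 joins the block at 0.79 to 0.84, with 0.42 to 0.90 on single plates.

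Of 1095 other genes with a mean of at least 0.5 transcripts per well, those whose share was most like the satellite-like share were all predicted genes of the same loci: Gm11168 (median rho 0.89), Gm10718 (0.85), Gm10719 (0.84), Gm17535 (0.84) and Gm10722 (0.75). Only 8 of the 1095 genes had a rho over 0.5, and the central 95% lay between -0.13 and 0.07. For the rRNA-like share the most similar genes were mt-Rnr2 (0.28) and mt-Rnr1 (0.26), the ribosomal RNAs of the mitochondrion, followed by the nuclear noncoding RNA Malat1 (0.22), the actin gene Actb (0.21) and the ribosomal protein gene Rpl22 (0.11). No gene passed 0.5, so this likeness was weak.

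Summed lists showed the same contrast. The other genes of the satellite loci had a median rho of 0.94 with the satellite-like share and made up 11.2% of the remaining transcripts in the 42 wells with at least 50% satellite-like transcripts, against 1.501% in the others. Microglia markers were lower in those wells, at 2.15% against 3.13% of the remaining transcripts (median rho -0.22), as were ribosomal protein genes (1.78% against 2.42%, rho -0.22) and transcripts of the mitochondrial genome (2.63% against 3.50%, rho -0.14). Since the remaining transcripts include the other satellite genes, which were higher in those wells, part of these differences is arithmetic. The other lists were lower in those wells too, with 1.18% against 1.87% for ribosomal RNA genes (rho -0.16), 1.66% against 2.23% for nuclear long noncoding RNAs (rho 0.08) and 0.0827% against 0.128% for immediate early genes (rho -0.09). With the rRNA-like share, the list of ribosomal RNA genes had a median rho of 0.30 and the mitochondrial transcripts one of 0.23, both positive on 13 of 13 plates. These 2 lists overlap, since mt-Rnr2 (1.12% of all transcripts) and mt-Rnr1 (0.288%) belong to both and hold nearly all transcripts of the first. The nuclear long noncoding RNAs had 0.22, positive on 11 of 13. The neutrophil marker listed on all plates was at 0.0431% in the 42 wells and 0.00926% in the others, the neuron markers at 0.00974% and 0.00132% and the endothelium markers at 0.0109% and 0.00441%. The other types were near level or lower in the 42 wells, with 0.00382% and 0.00368% for border macrophages, 0.00451% and 0.00410% for monocytes, 0.00451% and 0.00509% for oligodendrocytes, 0% and 0.000108% for astrocytes and 0% and 0.00524% for erythroid cells. The part of these cells in the share was not tested.

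Replicate identifiers that occur on more than 1 plate allowed the plate to be set against the replicate. The 8 replicates of plates 10 to 12 had a mean satellite-like share of 28.4%, 13.5% and 21.4% on the 3 plates. Of the 8, 7 were lowest on plate 11 and M8 on plate 12, and the highest plate of a replicate was 1.73 to 2.65 times its lowest. The plate accounted for 69.4% of the sum of squares of these shares and the replicate for 19.3%. On plates 4 and 5, the 6 shared replicates had means of 32.4% and 20.5%, with 66.2% of the sum of squares for the plate and 29.1% for the replicate. Whether an identifier marks 1 mouse is not given in the sources used here.

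For the rRNA-like share the plate also outweighed the replicate on plates 10 to 12, but not on plates 4 and 5. On plates 10 to 12 its means were 0.186%, 0.208% and 0.0327%, with 72.8% of the sum of squares for the plate and 13.99% for the replicate, and the highest plate of a replicate was 4.78 to 14.2 times its lowest. On plates 4 and 5 the replicate held 69.4% and the plate 4.96%. Plates 2 and 3 shared 2 replicates, and there the plate held 69.9% of the sum of squares of the satellite-like share and 81.7% of that of the rRNA-like share. The mean satellite-like share of the 192 well barcodes, the same on every plate, had a rho of 0.248 between odd and even plates, but barcode, diet and replicate cannot be told apart in this value, since diets were laid out on the plates by barcode.

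**Figure D5:**
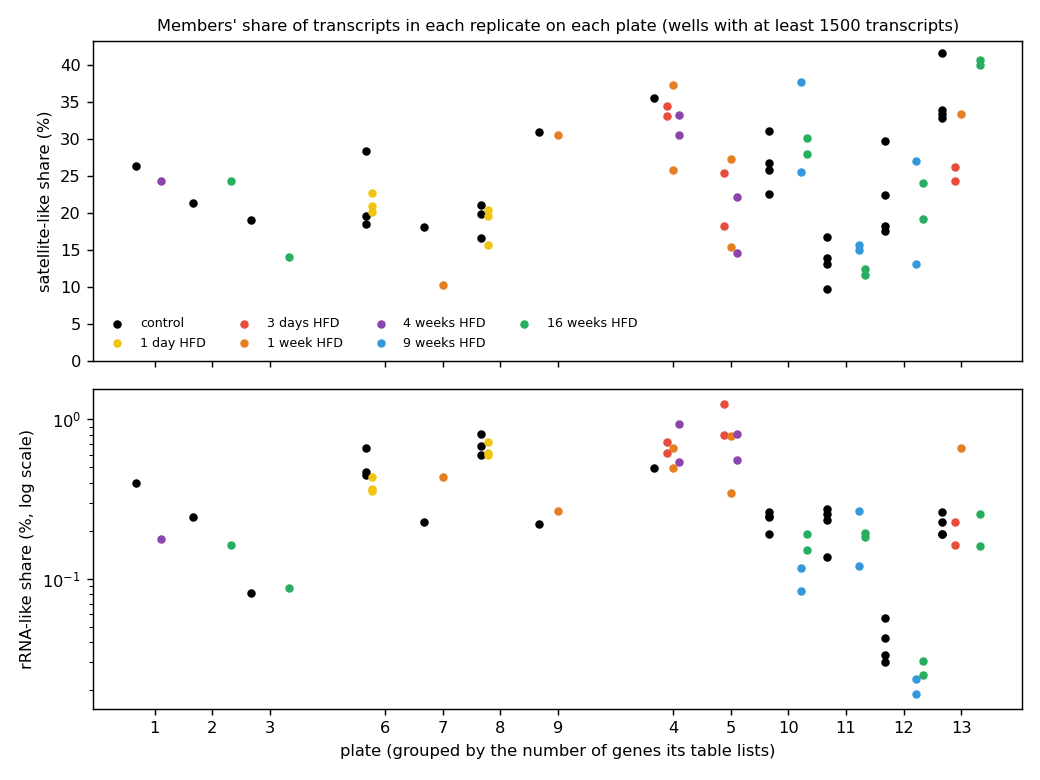
Satellite-like share in percent (upper panel) and rRNA-like share in percent on a log scale (lower panel) of each replicate on each plate, over wells with at least 1500 transcripts, coloured by diet and grouped by the number of genes the plate tables list. Plates 10, 11 and 12 hold the same 8 replicates, whose mean satellite-like share was 28.4%, 13.5% and 21.4%.

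Over replicates, the satellite-like share was 25.1 ± 7.53% on control diet (SD, n = 19, range 16.6% to 41.6%). It was 19.9 ± 2.33% after HFD of 1 day (n = 6), 27.5 ± 2.66% after 3 days (n = 4), 27.3 ± 9.41% after 1 week (n = 6), 25.6 ± 3.67% after 4 weeks (n = 3), 22.3 ± 5.97% after 9 weeks (n = 2) and 27.9 ± 11.3% after 16 weeks (n = 5). All the HFD means lay within 1 SD of the control mean. The rRNA-like share was 0.356 ± 0.210% on control diet, 0.514 ± 0.151% after 1 day, 0.498 ± 0.366% after 3 days, 0.463 ± 0.191% after 1 week, 0.541 ± 0.359% after 4 weeks, 0.117 ± 0.0490% after 9 weeks and 0.162 ± 0.0534% after 16 weeks, with n as above. Among single members, Gm26870 had the widest ratio of means between diets, with 0.808 ± 0.0830% after 1 day (n = 6), 3.17 ± 2.71% on control diet (n = 19) and 5.64 ± 1.503% after 3 days (n = 4). Its low value came from plates 6 and 8 and its high value from plates 4, 5 and 13, which belong to different plate sets. The means of Gm10800 ran from 7.06% to 9.63% over the 7 diets, those of Gm10801 from 7.48% to 10.8%, of Gm10717 from 1.04% to 1.47%, of Gm21738 from 1.80% to 2.54%, of Gm42418 from 0.113% to 0.532% and of Gm26917 from 0.00431% to 0.0186%. These levels mix diets with plates, since HFD of 9 weeks was run only on plates 10 to 12, which include the plate with the lowest rRNA-like share.

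To set each length of HFD against control diet within plates, the counts were summed per replicate and plate (68 sums, 28 of control diet) and fitted with edgeR's quasi-likelihood test with the plate as a block. Plate 5 had no control sum, so its sums of 3 days, 1 week and 4 weeks were not set directly against control on their plate. On plate 4 the same lengths rested on 1 control sum of 7 wells. Plates 1, 2, 3, 7 and 9 each held 1 control and 1 HFD replicate. The test called 0 of 2115 genes at any length (0% in either direction and 0% lower) at a Benjamini-Hochberg adjusted p of 0.05, so no member was called. At an unadjusted p of 0.05, 106, 95, 94, 96, 138 and 98 genes passed at 1 day, 3 days, 1 week, 4 weeks, 9 weeks and 16 weeks, and DESeq2 called 0 genes at every length but 9 weeks, where it called 1.

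The 5 satellite-like members had median log2 fold changes (HFD over control) of -0.10 at 1 day (range -0.21 to -0.01), -0.51 at 3 days (-0.60 to -0.46), -0.40 at 1 week (-0.57 to -0.29), -0.59 at 4 weeks (-0.69 to -0.40), 0.28 at 9 weeks (0.10 to 0.35) and 0.06 at 16 weeks (-0.07 to 0.08). The 9-week value rests on 2 replicates and was -0.17 without M7 and 0.63 without M8. Without the plate block the median turned to 0.17 at 1 week and 0.05 at 4 weeks, and without control replicate M5 of plate 6 it was 0.04 at 1 day. The median over all 2115 genes was between -0.01 and 0.01 at each length. These contrasts share control sums, and the 5 members have near-identical sequence and move together from well to well, so their values are not 5 independent observations. Without TMM, the scaling that centres the bulk of the genes, the median of all genes rose to 0.17 at 3 days, 0.15 at 1 week and 0.16 at 4 weeks. The spread of the members between sums of one diet and plate was high, with a biological coefficient of variation of 0.241 (Gm10801) to 0.306 (Gm21738), at the 87.6th to 96.8th percentile of the genes, against a median of 0.171.

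At 3 days Gm10717 and Gm21738, both picked for an earlier call at this length, had log2 fold changes of -0.51 ± 0.27 each (SE), given as a description. Gm10800 had -0.46 ± 0.23, Gm10801 had -0.52 ± 0.22 and Gm26870 had -0.60 ± 0.23, with 95% intervals of -0.92 to 0.00, -0.96 to -0.09 and -1.05 to -0.15. These 3 genes move with the picked pair from well to well, so their 3-day values are not independent of that choice and are likewise a description. Without the plate block the same values turned to 0.0023, 0.18 and 0.92, and the median of the 5 members to 0.16. Gm42418 had 0.18 ± 0.25 (adjusted p = 0.997, edgeR, interval -0.32 to 0.68) and Gm26917 had 0.19 ± 0.31 (adjusted p = 1.00, edgeR, interval -0.41 to 0.80). Neither direction held throughout, since Gm42418 was -0.11 with control and 3 days alone and -0.085 without HFD replicate M24, and Gm26917 was -0.016 without M24 and 1.20 without the plate block (adjusted p = 0.0142, edgeR). The 9 tested genes of the list of other satellite-locus genes had a median of -0.34, with 0 of 9 called.

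At the other lengths the adjusted p of the members was 0.604 or higher. Of 3 members called with low-count genes kept in the fit, the values with the filter were -0.57 ± 0.20 for Gm26870 at 1 week (adjusted p = 0.998, edgeR, and 0.66 without the plate block), -0.59 ± 0.24 for Gm10801 at 4 weeks (adjusted p = 0.968, edgeR) and -0.59 ± 0.23 for Gm42418 at 9 weeks (adjusted p = 0.604, edgeR).

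The 3-day difference could also be read in single replicates of the 2 plates that held both diets with enough deep wells. On plate 13, Gm10800, Gm10801 and Gm26870 together made up 23.1% and 21.6% of the transcripts in the 2 HFD replicates and 36.3%, 28.8%, 29.8% and 29.1% in the 4 control replicates. Both HFD replicates were therefore below all controls. On plate 4 the HFD replicates had 28.3% and 29.5%, and the 1 control replicate, made of 7 wells, had 30.5%. The mean difference within plates was -5.14 points, with -8.65 on plate 13 and -1.63 on plate 4. No p is given, since these 3 genes follow the pair that was picked at this length. Without control replicate M26, the lone control of plate 4, the difference was -8.65 points on plate 13 alone, and with all wells kept, which adds plate 5, it was -1.96 points.

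The values of the single members on plate 13 are given as a description, because Gm10717 and Gm21738 were picked for this contrast and all 5 satellite-like members share near-identical sequence. None of the 5 overlapped between the diets: Gm10800 at 7.13% and 7.68% against 9.15% to 11.55%, Gm10801 at 10.2% and 10.95% against 13.3% to 16.5%, Gm26870 at 4.21% and 4.51% against 4.97% to 8.23%, Gm10717 at 0.821% and 0.936% against 1.20% to 1.73%, and Gm21738 at 1.95% and 2.14% against 2.71% to 3.52%. Of 670 genes compared in this way, 2.69% were lower without overlap, and 21.8% were separated in either direction, and nothing is read from the members' count against these, since the 5 genes are not independent observations. Shares of 1 replicate sum to 100%, so a lower satellite-like share raises the shares of the other genes. Gm42418 (0.150% and 0.209% against 0.172% to 0.245%) and Gm26917 overlapped between the diets. The summed rRNA-like share differed by 0.0723 points within plates, 0.168 on plate 4 and -0.0232 on plate 13, with p = 0.467 in an exact permutation test of diets within plates (two-sided, 45 assignments, smallest possible p 0.0222).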

How the data were processed

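Per the study's methods, the authors used Cutadapt for the barcodes, STAR (GRCm38/mm10) for alignment, featureCounts in snakePipes for counting and RaceID3, with a correction by plate, for the cells. The deposited plate tables hold estimated counts per gene and well, which are numbers of different UMIs corrected for chance repeats, with no normalization. All of them converted back to whole UMIs within 0.001. The authors' gene list in the filtered table was used for the 1500-transcript minimum. Read treatment at repeats and the annotation version are not given in the sources used here, and GENCODE vM21 served for coordinates and sequences.

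The members, lists and tests were chosen with earlier results of these data known. A replicate is an identifier on plates that share it, and it need not be 1 mouse. The edgeR p-values measure the spread between sums, since 44 replicates entered as 68 sums with no term for the replicate. The permutation p measures the spread between the replicates of a plate. Diets and lengths came from the table of wells, with 2 spellings of 1 week merged. For the fits, wells with at least 1500 transcripts were summed per replicate and plate (at least 5 wells), rounded and fitted with edgeR 4.0.16 (TMM, filterByExpr, plate as a block, all lengths in 1 fit) in R 4.3.3, with Benjamini-Hochberg adjustment. limma 3.58.1 and DESeq2 1.42.0 were alternatives. Replicates on several plates enter more than once, so that the 2 replicates of 9 weeks enter as 6 sums. In 3-day data simulated with independent sums, 82% of genes changed by a log2 of 1 and 100% of those changed by 2 were recovered. There were 5 false calls among 2060 genes. The changed genes were drawn from outside the members and above the median abundance. These rates therefore do not apply to the members, whose spread was higher than that of most genes. Shares and permutations were computed in python 3.11.15 (pandas 2.3.3, scipy 1.17.1, numpy 2.4.6). Named genes are the members, those of the fixed lists and the 5 most similar genes for each kind. Leaving out plates 7 and 9 and counting depth over all genes were chosen after seeing the data. The planned permutation test of the summed satellite-like share at 3 days is not reported, because the members follow the pair picked at that length. Depth per plate is given above. Intervals are at 95%.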

Additional observations from a re-analysis of the deposited data

Results flagged for a closer look

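Only the control replicates of plates 10, 11, 12 and 13, with 4 on each plate, were enough to examine for a value far from the others. The satellite-like share, the rRNA-like share and the fraction of Gm26870 among satellite-like transcripts gave 12 tests. Plates 10 to 12 hold the same replicates, so these tests are not independent. Such a value was found in 1 test, and chance alone marks about 1 test in 20. The satellite-like share of control replicate M11 on plate 13 was 41.55%, while the other 3 control replicates of that plate lay between 32.8% and 33.9%. Without it, the 3-day difference in Gm10800, Gm10801 and Gm26870 within plates was -4.25 points in place of -5.14.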

How the results depend on the processing

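By the replicate numbers of the labels, no paired analysis was possible because each number names 1 plate, which holds wells of control diet and of HFD. Control and HFD wells of 1 plate were instead compared within the plate, as a block, and the replicate identifiers of the table of wells, some of which occur on several plates, entered as a random effect only in the limma alternative.

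The number of genes called by diet moved from 0 with the processing. Without the plate block it was 2 at 1 day, 31 at 3 days, 16 at 1 week, 25 at 4 weeks and 1 at 16 weeks. With no filter on low counts it was 6 at 3 days, 6 at 1 week, 12 at 4 weeks, 3 at 9 weeks and 4 at 16 weeks. limma with the replicate as a random effect called 1 gene at 1 week and 1 at 4 weeks, DESeq2 called 1 at 9 weeks, and control with that length alone gave 1 at 9 weeks. Leaving out single replicates gave 0 to 1 genes at 4 weeks (1 without M20 or M21). Members called with no filter were Gm26870 at 1 week (adjusted p = 0.00841, edgeR), Gm10801 at 4 weeks (adjusted p = 0.0452, edgeR) and Gm42418 at 9 weeks (adjusted p = 0.0327, edgeR), and without the plate block Gm26917 at 3 days (log2 1.20, adjusted p = 0.0142, edgeR). The cause was not tested.

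Without the plate block the 3-day log2 fold changes turned to 0.0023 for Gm10800, 0.18 for Gm10801 and 0.92 for Gm26870, and the 1-week value of Gm26870 to 0.66. That of Gm42418 at 3 days turned to -0.11 with control and 3 days alone and to -0.085 without M24, and that of Gm26917 to -0.016 without M24. At 9 weeks the satellite-like median was -0.17 without M7 and 0.63 without M8.

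The 3-day difference within plates in the summed share of Gm10800, Gm10801 and Gm26870 was -1.96 points with no minimum of transcripts, and -8.65 (without M26) to -4.25 points when single replicates were left out, with -5.53 without M17 and -4.75 without M18. The rRNA-like difference turned to -0.421 points with no minimum, which adds plate 5, and ranged from -0.0232 (without M26) to 0.0993 over the replicates left out. The median over plates of each plate's median rho among the 6 satellite-like pairs without Gm26870 went from 0.962 to 0.906 after thinning. Wells under 1500 transcripts were at least 50% satellite-like in 7.94% of cases without plates 7 and 9 and in 12.5% with depth over all common genes, in place of 16.5%. Of the 150 comparisons of a summary value with an alternative, 127 kept their direction and stayed near the value or, where tested, on the same side of the threshold, while 17 moved and 2 turned. The remaining 4 are alternatives of the 3-day permutation test of Gm10800, Gm10801 and Gm26870 that is not reported. Of the other 302, 279 stayed, 12 moved, 4 gained the threshold and 7 turned.

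Depth limits Gm26917 most, with at most 17 transcripts in a well.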
